A study of Mus musculus with 6 samples.

Results

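The genes of PLC-beta, PKC and CaMKII were read in the hypothalamus of obese mice given GSK-J4 or vehicle. The set holds 9 genes, *Plcb1*, *Plcb3*, *Plcb4*, *Prkca*, *Prkcb*, *Camk2a*, *Camk2b*, *Camk2d* and *Camk2g*, of 37074 gene names on the array. It was defined by gene symbol and not by a measured value, but with earlier results of these data known. Exact matches to the gene name column gave 34 of 56605 probes. All mice were male C57BL/6J with diet-induced obesity (DIO) on a diet with 60 kcal% fat, and the labels give no age. GSK-J4, an inhibitor of the demethylases that remove H3k27me3, was given at 30 mg kg−1 to 3 mice and vehicle at 0 mg kg−1 to 3 other mice, with 1 Agilent array of hypothalamic RNA for each mouse. The tissue was taken at ZT 6 h (hours after lights on), on day 4 after exposure according to the description deposited with the arrays, while the study's methods describe a longer course of daily injections. GSK-J4 was given to the whole body, so its action in other organs is part of any difference between these groups.

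These genes form a relay that carries hormone and transmitter signals from receptors coupled to Gq proteins. PLC-beta enzymes cleave a membrane lipid into IP3, which releases calcium from internal stores, and diacylglycerol, which together with calcium activates the conventional PKC kinases. Calcium bound to calmodulin activates CaMKII, a kinase of many subunits best known for synaptic plasticity, and several neuropeptide receptors of the hypothalamus use this route.

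A value here is the log2 signal of a probe of 60 bases after the authors' quantile normalization, and a difference is the mean of the 3 GSK-J4 arrays minus the mean of the 3 vehicle arrays on that scale. A probe entered the test in limma if the scanner software flagged it well above background throughout 1 group or both, and p-values were adjusted over all 34443 such probes. A probe's level depends on its own sequence and was not set against that of another probe. The 3 vehicle arrays lay on 1 slide in 1 scan and the 3 GSK-J4 arrays on another slide in another scan, so treatment, slide and scan cannot be told apart for any difference below. Between 57.7% and 58.7% of probes were well above background on the GSK-J4 arrays, against 62.8% to 63.6% on the vehicle arrays. Neuronal markers were strong on every array, with a mean log2 level of 5 genes between 14.21 and 14.69. Of 10 hypothalamic markers, 6 could be tested, and their mean lay between 7.04 and 7.31 in vehicle and between 7.45 and 7.88 in GSK-J4, whereas *Pmch*, *Avp*, *Sim1* and *Nkx2-1* missed that flag on some array of each group. The choroid plexus list stood at 13.31 in vehicle replicate 1 and between 8.52 and 9.88 on the other 5 arrays. The 6 markers of cortex and hippocampus had a mean between 11.16 and 11.39 over the 6 arrays. The share of such tissue in the signals of the set was not tested.

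Probes of *Camk2d*, *Plcb1* and *Plcb4* on which several of the results turn are shown with G and C in capitals, since the difference between groups moved with the G and C content of the probe over the whole array. The coordinates are those of the array files on mm9, each run is on the plus strand and printed 5′ to 3′, and exons were not annotated here. The first is a probe of *Camk2d*, the next 2 are probes of *Plcb1* whose differences had opposite signs, and the last 3 belong to *Plcb4*, of which the last 2 fell and are shown by their first 30 bases.
Camk2d A_55_P1978830, chr3:126543223-126543282: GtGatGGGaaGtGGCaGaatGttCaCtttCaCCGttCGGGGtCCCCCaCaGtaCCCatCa
Plcb1 A_52_P351574, chr2:135196297-135211848: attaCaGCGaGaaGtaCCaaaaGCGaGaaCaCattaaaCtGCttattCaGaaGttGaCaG
Plcb1 A_51_P284665, chr2:135190506-135190565: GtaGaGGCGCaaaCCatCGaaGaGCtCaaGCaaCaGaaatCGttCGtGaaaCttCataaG
Plcb4 A_55_P2121980, chr2:135807797-135807856: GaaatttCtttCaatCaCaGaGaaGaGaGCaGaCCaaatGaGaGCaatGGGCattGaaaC
Plcb4 A_55_P2717439, chr2:135568415-135568474: attaGaaGtttaaGGtCatCCttaaCtGCa
Plcb4 A_55_P2025820, chr2:135487286-135487345: CatGCCtCGGaatCCaGGCttCGtGCttaC

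Of the 34 probes, 31 were tested, and 3 of them were lower and 0 higher in GSK-J4 once p-values were adjusted (0.05 or below). Over all tested probes 8.42% were lower and 8.39% higher, so the set's count was near that of the array. The 3 probes belong to *Camk2a* (1 probe) and *Plcb4* (2 probes). At the thresholds of the study's methods, 1.5-fold with an unadjusted p of at most 0.05, 3 probes were lower and 1 was higher, where 7.86% and 4.79% of all probes were. Of these 3 lower probes, 2 were dim in GSK-J4 and entered the test through the vehicle group, and the split moved with the processing. It was 1 lower and 2 higher among the 28 probes well above background on all 6 arrays. Under normexp background correction it was 1 lower and 3 higher, and with the replicate number as a block 2 lower and 3 higher. Without GSK-J4 replicate 2 it was 3 lower and 4 higher. Both array weights and scaling to the 75th percentile gave 5 lower and 0 higher. Without a filter on dim probes the split was 3 lower and 0 higher, and with a GC correction 4 lower and 2 higher. The shares of all probes at these thresholds are not given for these alternatives. The splits therefore cannot be read as a result about the set. The groups did not overlap for 9 of the 31 probes, 7 lower and 2 higher in every GSK-J4 array, against 45.6% of all probes in either direction. Of the 7, 2 were dim in GSK-J4 and had entered through the vehicle group. The median difference of the 31 probes was 0.00, beside 0.02 over all tested probes. When arrays were instead aligned at the 75th percentile of their signals, 4 probes were lower and 2 higher, where 10.6% and 14.6% of all probes were, and 4 of the 31 differences changed sign. Without vehicle replicate 1, 2 or 3 the count of member probes was 0, and that over the whole array 10, 13 and 5. With 3 arrays against 3 the exact permutation test cannot give a two-sided p below 0.1, so calls rest on the adjusted p of limma.

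With the brightest tested probe kept for each gene, 0 of the 9 genes passed in limma, where 8.99% of 22117 genes were higher and 7.79% lower. At an unadjusted p under 0.05, 1 of the 9 was lower and 0 higher, on the brightest probe of *Camk2b*. The methods' test without equal variances gave 0 in either direction at that unadjusted p, and the one with equal variances gave 1 lower. The share of all genes at that unadjusted p is not given here, so these counts cannot be read as a result about the set.

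**Figure D1:**
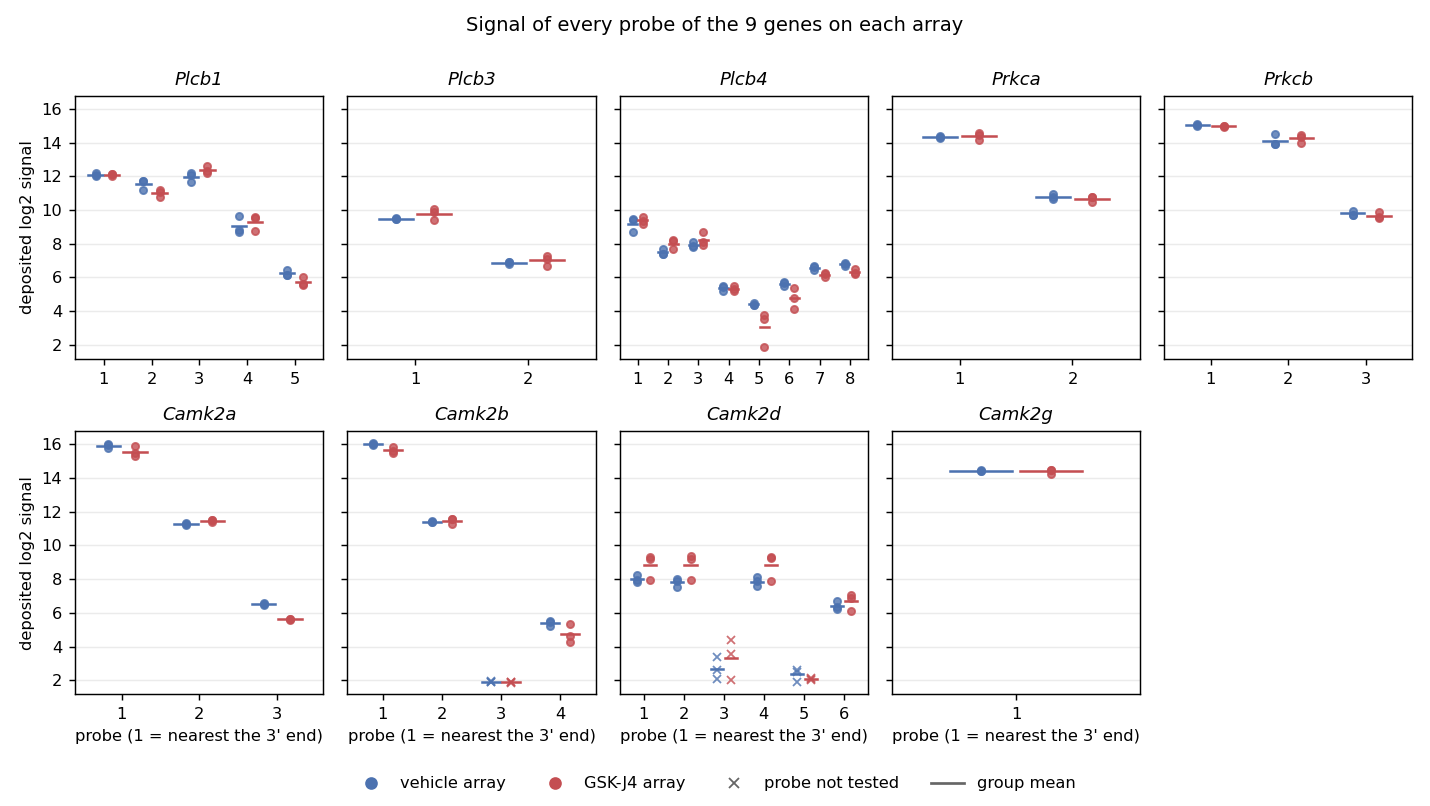
Deposited log2 signal (vertical axis) of each of the 34 probes, by gene, on the 3 vehicle arrays (blue) and the 3 GSK-J4 arrays (red), with a bar at each group mean. Probes are numbered from the one nearest the 3′ end of the gene, and crosses are the 3 probes not tested. For 3 probes of Camk2d, 2 GSK-J4 arrays lie above and 1 among the vehicle arrays.

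PLC-beta stands at the head of the relay, and none of its 3 genes passed on the brightest probe. *Plcb1*, the isoform most widely found in forebrain neurons, had 5 tested probes with differences from -0.52 to 0.41, of which 0 passed. The probe nearest the 3′ end, from a RefSeq record, read 12.18, 12.10 and 11.99 in vehicle and 12.12, 12.12 and 12.04 in GSK-J4. This is a difference of 0.00 ± 0.08 (SE), with a 95% confidence interval from -0.19 to 0.20.

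A_52_P351574 and A_51_P284665 of *Plcb1*, shown above, went in opposite directions. A_52_P351574, whose bases match across 15552 bases of the genome and so join exons, read 11.18, 11.74 and 11.69 in vehicle and 11.22, 10.79 and 11.05 in GSK-J4, a difference of -0.52 ± 0.19 (SE) with an adjusted p of 0.111. Vehicle replicate 1 lay among the GSK-J4 arrays. A_51_P284665, the brightest, read 11.66, 12.05 and 12.17 in vehicle and 12.63, 12.18 and 12.33 in GSK-J4, a difference of 0.41 ± 0.18 (SE) with an adjusted p of 0.154. Every GSK-J4 array was above every vehicle array there, but neither probe passed. A_55_P2735200, placed on a GenBank cDNA and farthest from the 3′ end, was lower in every GSK-J4 array by a mean of 0.52 on the log2 scale (difference -0.52, adjusted p = 0.077).

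*Plcb3*, which is found in many tissues outside the brain, had 2 probes, and neither passed. The brighter one read 9.486, 9.503 and 9.489 in vehicle and 9.43, 9.87 and 10.05 in GSK-J4, a difference of 0.29 ± 0.16 (SE) with an adjusted p of 0.249. GSK-J4 replicate 1 lay below all 3 vehicle arrays and the other 2 above them, and the difference was 0.47 without that replicate (adjusted p = 0.0492), 0.25 without replicate 2 (adjusted p = 0.41) and 0.16 without replicate 3 (adjusted p = 0.47). The array whose absence brought the call was the one that went the other way. The spread was 0.32 (SD, n = 3) in GSK-J4 against 0.0090 in vehicle. The other probe differed by 0.14 with an adjusted p of 0.554. With the trend on GC content removed, the brighter probe differed by 0.03 and the other by -0.11.

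*Plcb4*, the isoform of cerebellum, thalamus and retina, had 8 tested probes, spread along the gene. The 4 probes nearest the 3′ end lay within 64332 bases of the last probe and differed by 0.19, 0.51, 0.32 and -0.06. None of these passed, with adjusted p between 0.096 and 0.741. Of the 4 probes farther upstream, from 104154 to 352969 bases before the last probe, 2 were well above background on all 6 arrays, and these were lower in every GSK-J4 array. The other 2 were dim in GSK-J4 and entered the test through the vehicle group, so the filter favoured a lower value there and they are given as values alone. This division of the gene was made after the values were seen and has no test.

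The *Plcb4* probes that passed were the 2 of these above background on every array. In a tissue of many cell types, fewer cells that express a gene and less of its RNA per cell cannot be told apart. Exons were not annotated here, so which transcript of the gene these 2 probes read was not tested. A_55_P2025820, the farthest upstream, read 6.79, 6.69 and 6.85 in vehicle and 6.26, 6.23 and 6.53 in GSK-J4, and fell by 0.44 on the log2 scale (difference -0.44 ± 0.11 SE, adjusted p = 0.0449). A_55_P2717439 read 6.44, 6.60 and 6.67 in vehicle and 6.19, 6.25 and 6.00 in GSK-J4, and fell by 0.42 (difference -0.42 ± 0.11 SE, adjusted p = 0.0473). The lowest vehicle value exceeded the highest GSK-J4 value for both. Neither change reached 1.5-fold, and the calls were lost without any 1 array except GSK-J4 replicate 3, without which A_55_P2025820 kept an adjusted p of 0.0341.

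A_55_P2717444 lies just downstream of A_55_P2717439 and read 5.46, 5.74 and 5.66 in vehicle and 5.38, 4.13 and 4.76 in GSK-J4, a difference of -0.86 ± 0.31 (SE) with an adjusted p of 0.106. It was well above background on 3 vehicle and 2 GSK-J4 arrays. A_55_P2631490 passed the background flag in the 3 vehicle arrays, at 4.36, 4.34 and 4.49, and in 0 GSK-J4 arrays, where it was not well above background and read 1.88, 3.56 and 3.75. The bound that background sets there did not exceed 1-fold, so no fold is given. By contrast, A_55_P2121980, shown above, read 8.09, 7.84 and 7.80 in vehicle and 8.68, 7.91 and 8.09 in GSK-J4, a difference of 0.32 ± 0.22 (SE) with an adjusted p of 0.331. The upstream 4 were designed on Ensembl transcripts or a GenBank cDNA, and the 4 nearer the 3′ end on 2 Ensembl transcripts and on RefSeq, so position and kind of record cannot be fully told apart.

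**Figure D2:**
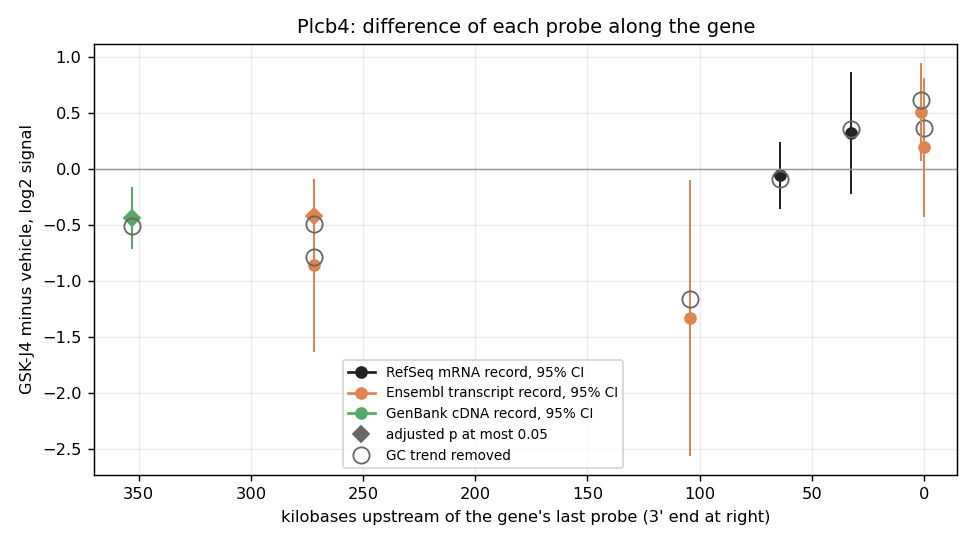
Difference GSK-J4 minus vehicle in log2 signal (vertical axis, mean with 95% confidence interval) for the 8 tested Plcb4 probes against their distance upstream of the gene's last probe in kilobases (horizontal axis, 3′ end at the right). Colours give the kind of transcript record, diamonds the 2 probes that passed and open circles the difference with the GC trend taken out. The 4 probes from 104154 bases upward lie below 0 with and without that step, and 2 of them entered the test through the vehicle group alone.

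The conventional PKC kinases, *Prkca* and *Prkcb* among them, need both diacylglycerol and calcium, and neither gene passed on any probe. *Prkca*, a broadly expressed isoform, differed by 0.06 ± 0.12 (SE) on its brighter probe, with a 95% confidence interval from -0.24 to 0.36, and by -0.11 ± 0.13 (SE) on the other. The first of these was -0.02 under normexp background correction and -0.02 with the trend on GC content removed, so it had no settled direction. *Prkcb*, an isoform strong in forebrain, read 14.97, 15.08 and 15.07 in vehicle and 14.96, 14.94 and 15.01 in GSK-J4 on its brightest probe. The difference of -0.07 ± 0.07 (SE) had an adjusted p of 0.508 and a 95% confidence interval from -0.24 to 0.10. Under scaling to the 75th percentile this became 0.36 with an adjusted p of 0.0355. The other *Prkcb* probes differed by 0.14 and -0.13, and neither passed.

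Of the 4 CaMKII subunits, the tested probes of *Camk2d* all lay above 0, those of *Camk2a* and *Camk2b* lay on both sides and the single probe of *Camk2g* lay near 0. *Camk2a*, which encodes the alpha subunit and is abundant in excitatory forebrain neurons, had 3 tested probes. The brightest read 16.01, 15.93 and 15.78 in vehicle and 15.31, 15.50 and 15.87 in GSK-J4, a difference of -0.35 ± 0.16 (SE) with an adjusted p of 0.177, which turned to 0.12 under scaling to the 75th percentile. GSK-J4 replicate 3 lay inside the vehicle range. A_55_P2149209 was higher in every GSK-J4 array, at 11.39, 11.50 and 11.49 against 11.33, 11.20 and 11.26, a difference of 0.19 ± 0.08 (SE) with an adjusted p of 0.127. This difference became -0.07 with the trend on GC content removed.

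A_55_P2718182 of *Camk2a* lies 44593 bases upstream of the last one on an Ensembl transcript. It read 6.59, 6.46 and 6.55 in vehicle and 5.58, 5.66 and 5.65 in GSK-J4. The SD was 0.07 in vehicle and 0.04 in GSK-J4 (n = 3 each), the groups did not overlap, and the probe fell by 0.90 on the log2 scale (difference -0.90 ± 0.07 SE, 1.87-fold, adjusted p = 0.012). Of the 3 probes that passed it had the lowest adjusted p, and it was the only *Camk2a* probe that did. Without any 1 vehicle array its adjusted p lay between 0.0587 and 0.0683, and its size under the alternatives ranged from -1.03 to -0.45.

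*Camk2b*, the beta subunit, which also binds actin, had 3 tested probes and 0 passed. The brightest, read on 10 spots per array, was at 15.98, 16.06 and 16.02 in vehicle and 15.49, 15.83 and 15.61 in GSK-J4. All GSK-J4 arrays were lower, by a mean difference of -0.38 ± 0.11 (SE) with an adjusted p of 0.0609, which turned to 0.10 under scaling to the 75th percentile. A_55_P2150578 differed by 0.05 with an adjusted p of 0.745, and A_55_P2713350, well above background on 3 vehicle and 1 GSK-J4 arrays, by -0.65 with an adjusted p of 0.146. The fourth probe did not rise well above background anywhere. *Camk2g*, the gamma subunit, read 14.45, 14.39 and 14.44 in vehicle and 14.50, 14.24 and 14.45 in GSK-J4. Its difference of -0.03 ± 0.09 (SE) had a 95% confidence interval from -0.26 to 0.20, and became 0.31 under scaling to the 75th percentile.

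**Figure D3:**
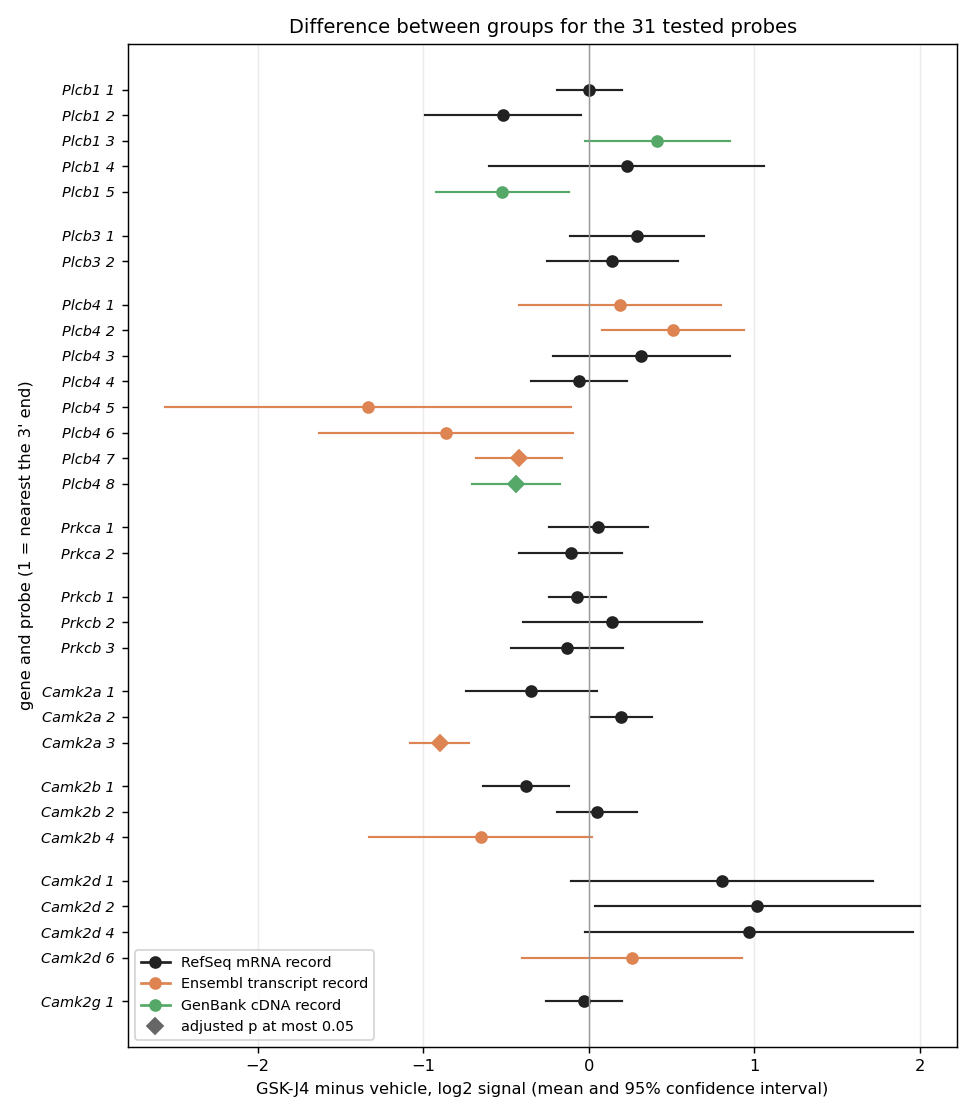
Difference GSK-J4 minus vehicle in log2 signal (horizontal axis, mean with 95% confidence interval) for the 31 tested probes, grouped by gene and numbered from the 3′ end. Colours give the kind of transcript record and diamonds mark the 3 probes with an adjusted p of at most 0.05, all of them below 0. All 4 probes of Camk2d lie above 0 with wide intervals.

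*Camk2d*, the delta subunit, known best from heart, had the largest positive differences of the set. Its 3 probes on RefSeq records differed by 0.80, 1.02 and 0.97, and none passed, with adjusted p between 0.127 and 0.176. A_52_P188261, the only member probe higher at the thresholds of the methods, read 7.91, 7.56 and 8.01 in vehicle and 9.38, 7.94 and 9.21 in GSK-J4. A_55_P1978830, shown above, read 7.88, 7.59 and 8.11 in vehicle and 9.23, 7.92 and 9.33 in GSK-J4. GSK-J4 replicate 2 lay within the vehicle range on each of the 3 probes, while replicates 1 and 3 lay above every vehicle array. Averaged over the 3 probes the level was 7.90 ± 0.24 (SD, n = 3) in vehicle and 8.83 ± 0.77 (SD, n = 3) in GSK-J4. Without GSK-J4 replicate 2 the 3 probes differed by 1.23, 1.47 and 1.42, with adjusted p of 0.0225, 0.0196 and 0.0209, a gain that follows from leaving out the array that did not rise. Without replicate 1 they differed by 0.57, 0.75 and 0.76 (adjusted p between 0.266 and 0.357), and without replicate 3 by 0.62, 0.84 and 0.72 (adjusted p between 0.244 and 0.33). The fourth tested probe, on an Ensembl transcript, differed by 0.26 with an adjusted p of 0.516, and 2 more had no array well above background.

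Markers of the striatum were read on the same arrays. The mean log2 level of the 4 tested striatum genes was 9.09, 8.95 and 8.99 in vehicle and 9.40, 9.18 and 9.39 in GSK-J4, so replicate 2 was the lowest of the GSK-J4 arrays but above the vehicle arrays. Named after its values were seen, *Drd1*, the dopamine D1 receptor, read 8.30, 8.12 and 8.27 in vehicle and 9.15, 8.49 and 9.21 in GSK-J4, a difference of 0.72 with an adjusted p of 0.0633. *Ppp1r1b*, *Rgs9* and *Adora2a* did not have this pattern, with differences of 0.01, 0.12 and 0.40. Of the 4 genes 0 passed at the adjusted p. The part of the dissected tissue in the *Camk2d* values was not tested.

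**Figure D4:**
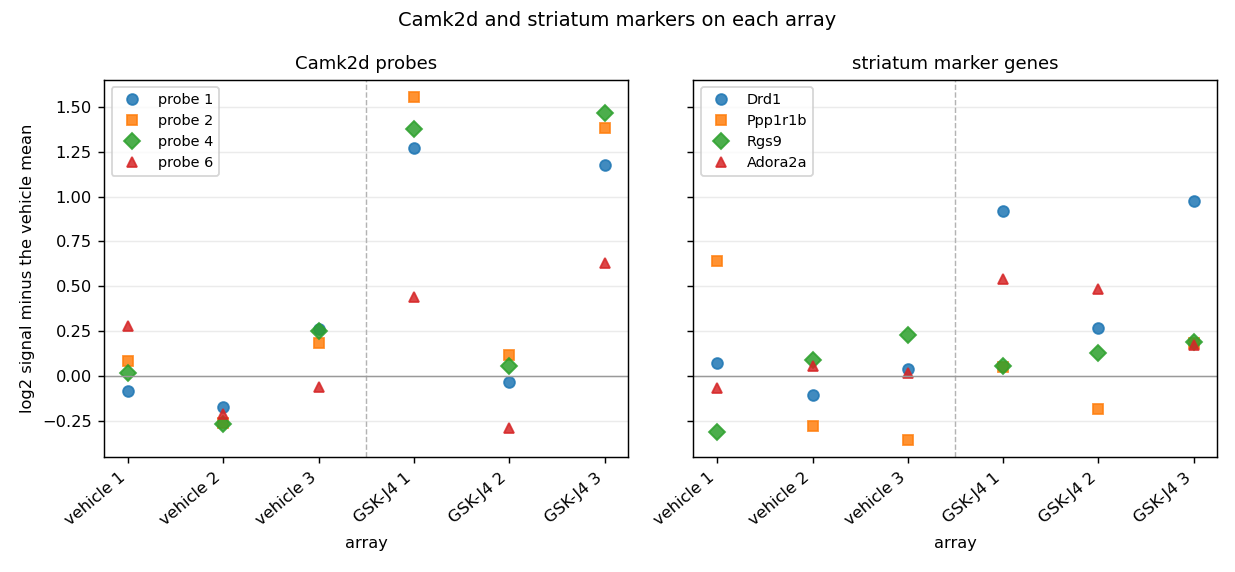
Log2 signal minus the vehicle mean (vertical axis) on each of the 6 arrays (horizontal axis) for the 4 tested Camk2d probes (left) and the 4 tested striatum marker genes (right), with 1 symbol for each probe or gene. GSK-J4 replicates 1 and 3 stand above the other 4 arrays for all 4 Camk2d probes and for Drd1, and GSK-J4 replicate 2 lies nearer to 0.

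The probes of the set shared features that the choice by symbol did not use. The 20 tested probes on RefSeq records had a median difference of 0.05, with 8 below 0 and 0 called lower. The 8 on Ensembl transcripts had a median of -0.54, with 5 below 0 and 2 called lower. These 8 include the 3 probes that entered the test through the vehicle group alone, all of them below 0. The filter favoured a lower value for those 3, so the median and the count below 0 cannot be read as a result about this kind of record. The 3 on GenBank cDNAs had a median of -0.44, with 2 below 0 and 1 called lower. Over the whole array, the medians were 0.06 for 21919 probes on RefSeq records and -0.14 for 4024 on Ensembl transcripts, of which 4.32% and 16.9% were called lower. The 8500 probes on other records, GenBank cDNAs among them, had a median of -0.08 and 15% called lower. By level, 8 of the 10 member probes with a mean log2 signal of up to 6.98 were below 0 and 3 were called lower, against 1 of 9 and 0 in the middle range and 6 of 12 and 0 above 10, so the share below 0 did not fall steadily with level. The lower range holds the 3 probes that entered the test through the vehicle group alone. Over all probes, 9.68%, 9.54% and 6.04% were called lower in the lower, middle and upper range.

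Differences also moved with the G and C content of the probe. Across the 31 member probes, which share genes and arrays, Pearson's r was 0.33 and Spearman's rho 0.30, and across all 34443 tested probes r was 0.33 and rho 0.36, given as descriptions. Probes with a GC content of up to 38.3% had a median difference of -0.13 over the array and -0.09 over the 12 members in that range, and those from 46.7% upward 0.23 over the array and 0.17 over 6 members. After the trend was removed within each array, r over the member probes was 0.05. The 3 probes that passed still passed, *Camk2a* A_55_P2718182 at -0.73 (adjusted p = 0.0164) and the *Plcb4* pair at -0.50 and -0.52 (adjusted p = 0.0481 and 0.0375). Over all alternatives of processing and arrays, however, the *Camk2a* probe kept its call in 13 and lost it in 6. Each probe of the *Plcb4* pair kept it in 6 and lost it in 13.

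**Figure D5:**
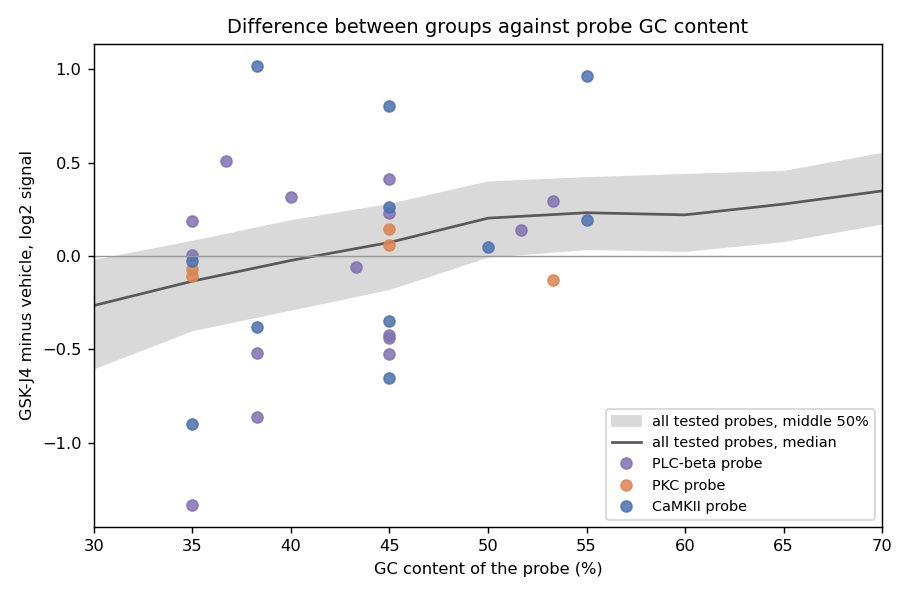
Difference GSK-J4 minus vehicle in log2 signal (vertical axis) against the GC content of the probe in percent (horizontal axis) for the 31 tested probes, coloured by family. The line is the median and the band the middle 50% of all tested probes in steps of 5% of GC content. The line rises from below 0 at low GC content to above 0 at high GC content, and 3 of 4 Camk2d probes lie outside the band.

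The wider pathway was read from 62 genes, of which 61 could be tested and *Dgkk* could not. By the adjusted p 2 rose and 5 fell, none by 1.5-fold, where 8.99% of all genes were higher and 7.79% lower. The median difference of the 61 genes was -0.04 beside 0.04 over all 22117 genes. The split turned with the scaling, to 10 higher and 2 lower at the 75th percentile. Over all probes, 14.6% were higher and 10.6% lower at that scaling, so the array moved as well. The 7 genes kept their signs there, but only *Itpr3* and *Ppp3cc* of them still passed. Of the others, *Gna11* shrank to -0.14, *Plcd4* to -0.25, *Prkci* to -0.09 and *Dgkd* to -0.19 there, and *Gna15* was 0.32. With the trend on GC content removed, *Gna15* was 0.22, *Gna11* -0.16, *Prkci* -0.11, *Dgkd* -0.17 and *Ppp3cc* -0.26. No pathway gene met the rule for naming. The 7 genes are named because they are few, and the genes named below that did not pass were chosen after their values were seen.

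Upstream of PLC-beta, the Gq family moved both ways. *Gna15*, the Gq protein of blood cells, rose by 0.45 (adjusted p = 0.0457) and *Gna11*, which is found in most tissues, fell by 0.33 (difference -0.33, adjusted p = 0.037), while *Gnaq* differed by 0.01 and *Gna14* by 0.27 without passing. Among 11 other phospholipases C, *Plcd4*, a calcium-sensitive delta isoform, fell by 0.55 (difference -0.55 ± 0.08 SE, adjusted p = 0.0163). It read 14.01, 14.19 and 14.14 in vehicle and 13.52, 13.61 and 13.56 in GSK-J4, and the groups did not overlap. The other 10 did not pass.

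Downstream, 1 of 3 IP3 receptors passed, *Itpr3*, which rose by 0.33 (adjusted p = 0.038), while *Itpr1*, the main form of brain, differed by -0.24 with an adjusted p of 0.0501. *Prkci*, an atypical PKC that needs neither calcium nor diacylglycerol, fell by 0.28 (difference -0.28, adjusted p = 0.0359), and the other 8 PKC and PKD kinases did not pass. Of 9 diacylglycerol kinases, which remove diacylglycerol, 8 were below 0 and 1 passed, *Dgkd*, which fell by 0.34 (difference -0.34, adjusted p = 0.0338). Over all 22117 genes, 11990 were above 0. In GSK-J4 *Dgke* read 10.37, 10.25 and 7.19 and *Dgkz* 15.05, 15.23 and 13.65, so replicate 3 set much of these 2 falls.

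On the calcium branch, none of 10 calmodulin and CaM kinase genes passed. Of these *Camkk1*, a kinase that activates other CaM kinases, read 14.69, 14.81 and 14.96 in vehicle and 14.17, 14.53 and 13.89 in GSK-J4, a difference of -0.62 with an adjusted p of 0.0636. The CaMKII inhibitors *Camk2n1* and *Camk2n2* differed by 0.24 and 0.38 without passing. All 4 calcineurin genes were below 0, where 11990 of all 22117 genes were above 0. Of the 4, 1 passed, *Ppp3cc*, a catalytic subunit of this calcium-activated phosphatase, which fell by 0.43 (difference -0.43, adjusted p = 0.0194). None of 5 PKC substrates and calmodulin-binding proteins and none of 4 RGS proteins, which shorten Gq signals, passed. *Gap43*, a PKC substrate of growing axons, read 6.55 in GSK-J4 replicate 3 and between 13.13 and 13.76 on the other 5 arrays.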

How the data were processed

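Hypothalamic RNA of 6 mice, 3 for each group, was measured on 1-colour Agilent SurePrint G3 mouse arrays. The authors extracted spot intensities with Feature Extraction 10.7.1.1, per the file headers, and deposited these intensities along with spot flags. A second deposited file holds log2 signals of 56745 probes, normalized between arrays by the quantile algorithm in GeneSpring according to the study's methods, and it gave the values used here. The 6 columns have sorted values that differ by at most 0.00424, and 0 columns were left unassigned. Probe names joined it to the intensity files for gene names, mm9 coordinates, sequences and flags.

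Of 56605 probes, 34443 carried the flag for well above background throughout 1 group or both. They were compared with limma 3.58.1 (lmFit and eBayes, two-sided, no covariate) in R 4.3.3 with data.table (version 1.17.8), with Benjamini-Hochberg adjustment over all of them. Gene values use the probe with the highest mean over all 6 arrays, for 22117 genes. Calls were made at an adjusted p of at most 0.05, and at the methods' 1.5-fold with an unadjusted p of at most 0.05. The fit was tested on simulated data.

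The members, lists and alternatives were chosen with earlier results of these data known. All members reported were to be named, and pathway genes only past 1.5-fold and the adjusted p together. Marker lists held tissues and cell types of and around the hypothalamus. Markers of cortex and hippocampus (6 of 6 tested, 1 higher, 1 lower), thalamus (4 of 5, 0 called), astrocytes, oligodendrocytes and microglia (4 of 4 each, 0 called) and endothelium (2 of 2, 0 called) were also read, as were those of hypothalamus (6 of 10, 2 higher), neurons, striatum (4 of 5 names) and choroid plexus (0 called), while no pituitary marker could be tested. Alternatives were the spot intensities, other scaling, background correction, filters, variance models, t-tests, the replicate number as a block, a GC correction (lowess, span of 30%), the mean of a gene's probes, and leaving out each array. The number of arrays limits the precision. Some items are not reported here. The ChIP-Seq and animal experiments were not analysed here.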

Additional observations from a re-analysis of the deposited data

How the results depend on the processing

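The 3 member probes called at the adjusted p became 6 with arrays scaled to the 75th percentile, 1 without a filter on dim probes, 1 with the positive and significant flag, 0 and 1 under the methods' t-test without and with equal variances, and between 0 and 7 when each array was left out. The total over the whole array moved as well, from 5788 to 8674 at the 75th percentile, 3765 without a filter and 4353 with that flag. It was 6780 with an intensity trend and robust variance and 3607 with the GC correction. Over the array the t-test without equal variances called 56 probes higher and 37 lower, and the one with equal variances 1831 and 1484. With each array left out the array total ran from 5 to 4165. The 7 member probes came without GSK-J4 replicate 2, where that total was 4165. At the methods' thresholds the 4 probes became 1 and 1 under these t-tests, and between 1 and 7 with an array left out. The share of all probes at those thresholds is not given for these settings. The 0 member genes became 1 (*Prkcb*) under 75th percentile scaling, 1 (*Camk2b*, lower) with an intensity trend and robust variance, and between 0 and 2 with an array left out. The 7 pathway genes became 12 (75th percentile), 4 (no filter), 2 (positive and significant flag), 12 (trend and robust variance), 0 (t-test without equal variances), 3 (GC correction), 11 (mean of all probes) and between 0 and 9 with an array left out. The replicate number as a block, with or without the GC correction, left 0 member probes, 0 pathway genes and 0 of all 34443 probes. Deviations of same-numbered arrays correlated at 0.00365, 0.0173 and 0.101, so the numbers were not taken as pairs.

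Signs turned for the brightest probes of 6 genes. Under 75th percentile scaling the difference was 0.123 for *Camk2a*, 0.104 for *Camk2b*, 0.309 for *Camk2g* and 0.357 for *Prkcb*. With the GC correction it was 0.141 for *Camk2g*, -0.0167 for *Prkca* and 0.1 for *Prkcb*, the same with the replicate block added. *Prkca* gave -0.0243 under normexp. With each array left out in turn *Camk2g* ran from -0.0813 to 0.0503, *Prkca* from -0.0377 to 0.169 and *Plcb4* from -0.0668 to 0.328. Single probes were followed over all alternatives for the brightest probe of each gene and each probe called at either threshold. Among these, 228 values kept direction and side of the threshold, 32 lost the call, 9 gained it and 14 reversed. The other tested member probes are not in this tally. The causes were not tested. Of the upstream *Plcb4* probes, the 2 that did not pass were near background in GSK-J4, which limits what their signal can show.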
